A study of Homo sapiens with 21 samples.

Results

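The genes described here encode the enzymes and the carrier that act on SR proteins after translation: the SR protein kinases SRPK1 and SRPK2, the CDC-like kinases CLK1, CLK2, CLK3 and CLK4, the kinases DYRK1A and PRPF4B, the import receptor TNPO3 and PPP1CA, a catalytic subunit of protein phosphatase 1. They were chosen by name, as the rows of 2 gene count tables whose Ensembl identifier maps to these symbols. The rule used no measured value, but the choice was made with earlier results of these data known. All 10 were found among the 60668 gene rows of each table, and all 10 passed the filter on low counts in both. The libraries are polyA-selected, stranded RNA-seq of HCC1806, a human cell line from a triple-negative breast cancer, grown as adherent cultures in DMEM with 15% FBS and harvested by scraping near confluence. There were 7 groups of 3 libraries. The first table held 3xCTL (genotype labelled control), 3xSR (overexpression of 3 SR proteins together) and MYC-OE. The second held 1xCtrl (a single plasmid control), SRSF2-OE, SRSF3-OE and SRSF7-OE, where OE stands for overexpression. All 7 groups share the cell line and its endogenous genes. Each line was set against the control of its own table, and 3xCTL, the control of MYC-OE here, may not carry the same vectors as it. Nothing in the labels says whether the 3 libraries of a group came from separate cultures, so the p-values measure the spread between these libraries, which may be technical.

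SR proteins are splicing factors whose arginine-serine domains are phosphorylated and dephosphorylated in a cycle. SRPK1 and SRPK2 phosphorylate them in the cytoplasm, the phosphorylated domain is bound by TNPO3 (transportin-SR) and carried into the nucleus, and the CLK kinases phosphorylate it further there and release SR proteins from nuclear speckles. Protein phosphatase 1 removes the phosphates, which accompanies splicing and the return of shuttling SR proteins to the cytoplasm. CLK transcripts are known for introns that are kept in part of the nuclear RNA and spliced out on demand, which gene counts do not separate.

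Total counts were 143269192 to 303323552 per library, and the epithelial marker EPCAM (517 to 705 CPM) and the basal keratin KRT5 (1600 to 2651 CPM) were present in all 21 libraries. CPM are counts relative to a library size scaled by TMM (counts per mega-count). Of the receptor genes behind the triple-negative label, ESR1 was at 6.49 to 11.5 CPM, ERBB2 at 99.6 to 184 CPM and PGR at 0 to 1.46 CPM. The fibroblast marker COL1A1 was at 5.46 to 15.7 CPM. CD3E was at 0 counts in 18 libraries and PTPRC at 0.126 to 0.539 CPM. The summed level of the 3 leukocyte markers was nonetheless higher in every overexpressing line than in its control, at 6.13 to 11.01 CPM in 3xCTL and 32.5 to 36.5 CPM in MYC-OE, nearly all of it CD68. Basal keratins also moved with the lines: KRT14 was at 348 ± 62.1 CPM in 3xCTL and 688 ± 13.4 CPM in 3xSR, and at 510 ± 150 CPM in 1xCtrl and 982 ± 85.4 CPM in SRSF3-OE (SD, n = 3), and KRT17 was at 65.5 ± 27.3 CPM in 1xCtrl and 198 ± 21.4 CPM in SRSF3-OE. KRT5 moved the other way, at 2150 ± 239 CPM in 1xCtrl and 1662 ± 59.7 CPM in SRSF3-OE, with no overlap. It was at 2390 ± 268 CPM in 3xCTL and 2128 ± 98.9 CPM in 3xSR, where the libraries overlapped. The part of these markers in the results below was not tested. SRSF3, SRSF7 and MYC were higher in the lines named for them, but SRSF2 was not higher in the libraries labelled 3xSR (log2 fold change -0.06, edgeR adjusted p = 0.389) or SRSF2-OE (-0.16, adjusted p = 0.098). These genes also moved in other lines. MYC was higher in 3xSR (0.75, adjusted p = 4.01e-07), at 157 ± 1.72 CPM, against 93.4 ± 2.87 CPM in 3xCTL and 174 ± 5.95 CPM in MYC-OE, and in SRSF3-OE (0.26) and SRSF7-OE (0.27). Relative to 1xCtrl, SRSF2-OE had higher SRSF3 (0.30) and SRSF7 (0.24). SRSF2 was lower in MYC-OE than in 3xCTL (-0.48) and lower in SRSF7-OE than in 1xCtrl (-0.38). The libraries differed in how their counts depended on the GC content of transcripts. The difference in log2 level between GC-rich and GC-poor genes was 0.75 in 1xCtrl replicate 2 and -0.24 and -0.51 in the other 1xCtrl libraries, and -0.40 in 3xCTL replicate 2 against 0.30 and 0.27 in the other 3xCTL libraries. It was -0.44 to -0.24 in the 3xSR libraries and 0.23 to 0.43 in the MYC-OE libraries, and values with this trend removed are given beside several of the results.

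Per kilobase of the principal transcript, PPP1CA was the most abundant of the 10 genes in 3xCTL, with 106 ± 7.76 CPM per kilobase (SD, n = 3), followed by PRPF4B with 69.8 ± 5.34. CLK2 (43.1 ± 0.834), CLK1 (41.1 ± 2.28) and SRPK1 (39.7 ± 3.41) came next on the same scale, and their libraries overlapped. CLK3 had 26.9 ± 1.66 CPM per kilobase, and SRPK2 (20.3 ± 1.14) and TNPO3 (19.4 ± 0.871) overlapped each other. DYRK1A (11.3 ± 0.535) and CLK4 (7.62 ± 0.279) were the lowest. In 1xCtrl the order differed at the top, with PRPF4B at 85.9 ± 8.51 and PPP1CA at 75.2 ± 12.2 CPM per kilobase in overlapping libraries, then CLK1 at 64.5 ± 6.94. By this length SRPK1 was at about the level of CLK1 and CLK2 in 3xCTL and below both in 1xCtrl, and CLK4 was the lowest of the 4 CLK genes in both controls. Neither order held per kilobase of all merged exons. On that scale SRPK1 (27.2) was above CLK2 (22.7) and CLK1 (15.0) in 3xCTL and above CLK1 in 1xCtrl, and CLK3 (2.43 in 3xCTL, 2.04 in 1xCtrl) was below CLK4 (2.47 and 3.63). The tables were normalized separately, so a level in one is not tested against a level in the other.

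Changes of these genes were small and went in both directions. Changes were tested with edgeR's quasi-likelihood F test, and p was adjusted by the Benjamini-Hochberg method over all genes tested, with a threshold of 0.05. The test called 17 of the 50 changes of these genes against a control, and no called change exceeded 0.45 on the log2 scale. In 3xSR 4 of the 10 were called, CLK1 and CLK4 higher and CLK3 and PPP1CA lower, where 29.0% of all genes were called. MYC-OE had 6, with CLK1, CLK2 and CLK4 higher and SRPK2, DYRK1A and PRPF4B lower, beside 35.3% of all genes. The libraries labelled SRSF2-OE had 1, PRPF4B, which was lower, beside 23.5% of all genes. SRSF3-OE had 4, SRPK1 and TNPO3 higher and CLK2 and CLK3 lower, beside 29.2%, and SRSF7-OE had 2, CLK1 and PRPF4B, both lower, beside 17.3%. Among genes at 5 CPM or more, as all 10 are, the shares called were higher, at 38.0%, 45.8%, 34.9%, 41.7% and 26.1% in these 5 comparisons in the same order. The members' median absolute log2 fold change was 0.135, 0.206, 0.0476, 0.186 and 0.155, and that of all genes at 5 CPM or more was 0.167, 0.186, 0.190, 0.213 and 0.167 in the same order. Of the 17 calls, 8 held their direction and their call in all 13 alternatives: CLK3 in 3xSR, CLK1, CLK2, CLK4 and PRPF4B in MYC-OE, CLK2 in SRSF3-OE, and PRPF4B in SRSF2-OE and SRSF7-OE. The groups did not overlap for 4 of the 10 genes in 3xSR (40.2% of all genes), 7 in MYC-OE (48.3%), 6 in SRSF3-OE (39.8%), 3 in SRSF7-OE (32.6%) and 2 in SRSF2-OE (35.9%). Comparisons within a table share its control libraries.

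**Figure D1:**
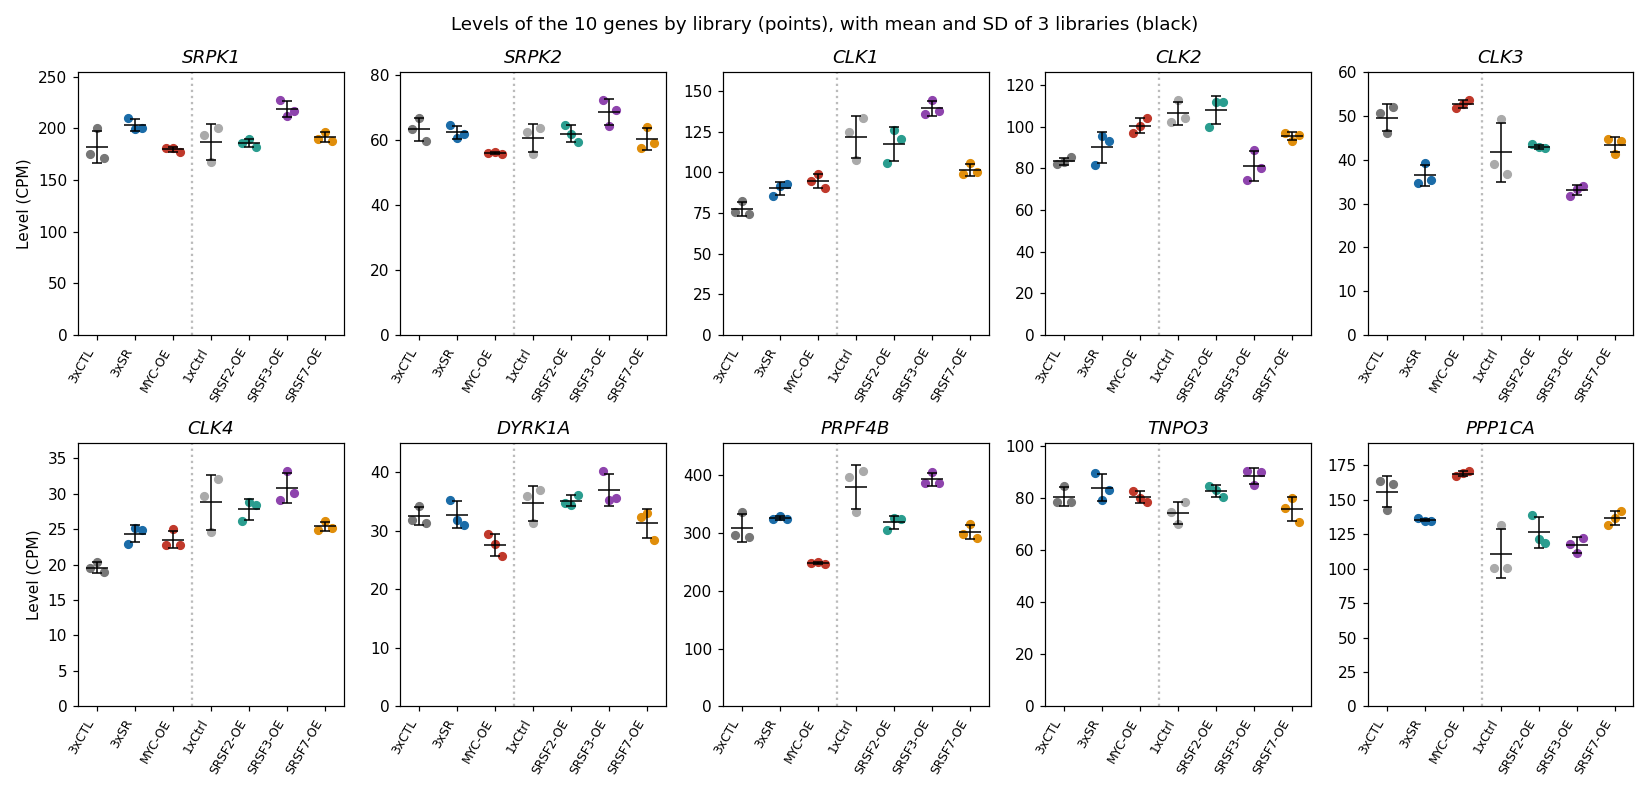
Level of each of the 10 genes (CPM, vertical axis from 0) in each of the 21 libraries, with the 7 groups along the horizontal axis, the black mark and bar giving the mean and SD of 3 libraries and the dotted line parting the 2 tables. CLK3 is low in the 3 libraries of 3xSR (34.7 to 39.2 CPM) and of SRSF3-OE (31.8 to 33.9 CPM), and PRPF4B is low in the 3 libraries of MYC-OE (245 to 250 CPM).

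**Figure D2:**
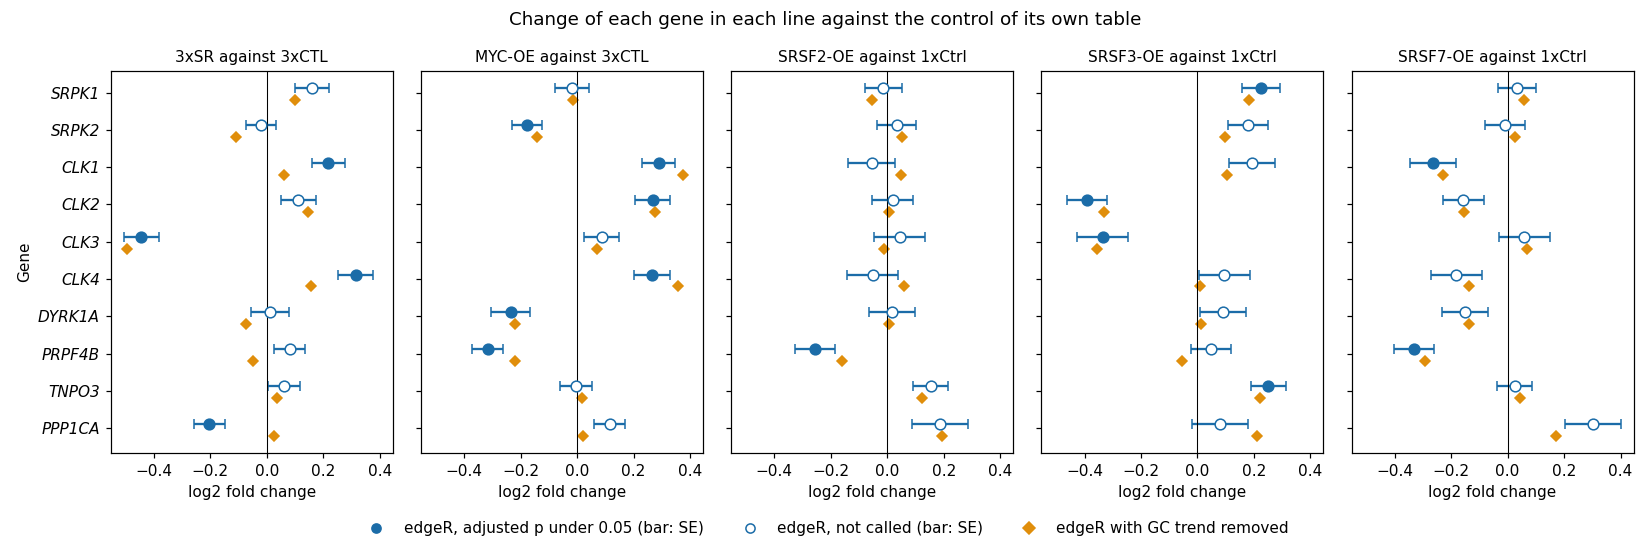
Log2 fold change of each gene (vertical axis) in each of the 5 lines against the control of its own table, a panel each, with bars for the standard error, filled circles for an edgeR adjusted p under 0.05 and diamonds for the value with the GC trend removed. CLK1 and CLK4 lie to the right in MYC-OE with and without the GC trend, while PPP1CA in 3xSR moves from -0.20 to 0.02 when the trend is removed.

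The cytoplasmic kinases changed little. SRPK1 (chromosome 6, 35832966 to 35921342, reverse strand; GRCh38, GENCODE release 29, as for all positions of genes here) was at 194, 168 and 201 CPM in 1xCtrl and at 227, 212 and 217 CPM in SRSF3-OE. All 3 SRSF3-OE libraries were above all 3 controls, with a log2 fold change of 0.22 (SE 0.0662, adjusted p = 0.0208). With library sizes scaled by total counts alone the change was 0.12 (adjusted p = 0.155), and in a fit of these 2 groups alone adjusted p was 0.10. Leaving out SRSF3-OE replicate 1 also ended the call (adjusted p = 0.066). In the same line SRPK1 was higher than in SRSF2-OE, where it was at 185, 189 and 182 CPM, and this direct difference of -0.24 (SRSF2-OE minus SRSF3-OE, SE 0.0662, adjusted p = 0.017) kept its call in all 13 alternatives. The difference between SRSF3-OE and SRSF7-OE, at 190, 197 and 188 CPM in the latter, was 0.19 (adjusted p = 0.0377) and was lost in 7 of its 13 alternatives.

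In the first table SRPK1 was at 175, 200 and 172 CPM in 3xCTL and at 210, 199 and 200 CPM in 3xSR. Replicate 2 of 3xCTL reached the 3xSR libraries, and the log2 fold change of 0.16 (SE 0.0598) was not called (adjusted p = 0.0667), whereas without that library it was 0.23 (adjusted p = 0.00079). It was also called by DESeq2 (0.16, adjusted p = 0.0455) and, at 0.10, with the GC trend removed (adjusted p = 0.0425). In MYC-OE the 3 libraries were at 181, 181 and 177 CPM, within the range of the control. They were below 3xSR, with a difference of -0.18 (SE 0.0598, adjusted p = 0.0375) that kept its call in 6 of 13 alternatives. SRPK2 (chromosome 7, 105110704 to 105399308, reverse strand), the second of the pair, was at 63.4, 66.9 and 59.8 CPM in 3xCTL and at 56.0, 56.2 and 55.9 CPM in MYC-OE. The MYC-OE libraries lay below all 3 controls, with a log2 fold change of -0.18 (SE 0.0525, adjusted p = 0.0201). Leaving out any 1 of the 3 MYC-OE libraries ended this call, with adjusted p up to 0.0653. SRPK2 was also lower in MYC-OE than in 3xSR (-0.16, adjusted p = 0.0379), a call kept in 4 of 13 alternatives. SRPK2 was not called in any of the other 4 lines, where its log2 fold changes ran from -0.02 to 0.18. In 3xSR, with -0.02, it was -0.11 and called with the GC trend removed (adjusted p = 0.0296), and in SRSF3-OE, with 0.18, it was called without SRSF3-OE replicate 2 (0.19, adjusted p = 0.033).

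CLK1 and CLK4, a closely related pair among the CLK genes, were both higher in 3xSR and MYC-OE. CLK1 (chromosome 2, 200853009 to 200864744, reverse strand) was at 75.9, 82.4 and 74.3 CPM in 3xCTL, at 85.5, 91.9 and 93.1 CPM in 3xSR and at 94.7, 98.8 and 90.6 CPM in MYC-OE. Every library of both lines was above every control library, and the log2 fold changes were 0.22 in 3xSR (SE 0.0582, adjusted p = 0.0148) and 0.29 in MYC-OE (SE 0.0581, adjusted p = 0.00216). CLK4 (chromosome 5, 178602664 to 178630615, reverse strand) was at 19.5, 20.3 and 18.9 CPM in 3xCTL, at 23.0, 25.1 and 24.9 CPM in 3xSR and at 22.8, 25.0 and 22.8 CPM in MYC-OE. Its libraries did not overlap with the control either, with log2 fold changes of 0.31 in 3xSR (SE 0.0627, adjusted p = 0.00269) and 0.26 in MYC-OE (SE 0.0626, adjusted p = 0.00586). Both transcripts are AT-rich, with 35.7% GC in CLK1 and 36.2% in CLK4. With the GC trend removed the MYC-OE changes were 0.37 for CLK1 (adjusted p = 1.2e-05) and 0.36 for CLK4 (adjusted p = 0.00016). The 3xSR changes then fell to 0.06 for CLK1 (adjusted p = 0.35) and 0.16 for CLK4 (adjusted p = 0.054), and neither was called. The CLK1 call in 3xSR was also lost without 3xCTL replicate 1 or 3 and without 3xSR replicate 2 or 3.

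The direct comparison of MYC-OE with 3xSR called neither gene, with differences of 0.07 for CLK1 (SE 0.0581, adjusted p = 0.381) and -0.05 for CLK4 (SE 0.0625, adjusted p = 0.584). With the GC trend removed both were higher in MYC-OE, by 0.31 for CLK1 (adjusted p = 8.9e-05) and 0.20 for CLK4 (adjusted p = 0.014), so the order of the lines turned for CLK4.

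In the second table CLK1 was highest in SRSF3-OE, at 136, 144 and 138 CPM, and lowest in SRSF7-OE, at 98.8, 106 and 100 CPM. The control libraries lay between, at 125, 107 and 133 CPM, and did not overlap with either line. SRSF3-OE exceeded SRSF7-OE by 0.46 on the log2 scale (SE 0.0825, adjusted p = 0.000775), and this difference kept its call in all 13 alternatives. Against the control, CLK1 in SRSF7-OE had a log2 fold change of -0.26 (SE 0.0824, adjusted p = 0.0424), and CLK1 in SRSF3-OE had 0.19 and was not called (adjusted p = 0.0985), except without 1xCtrl replicate 3 (0.22, adjusted p = 0.0478). The SRSF7-OE call was lost with the replicate number as a block (adjusted p = 0.069), in a fit of the 2 groups alone (0.088), without 1xCtrl replicate 3 (0.063) and without SRSF7-OE replicate 3 (0.061). CLK4 was at 29.1, 33.1 and 30.0 CPM in SRSF3-OE and at 24.8, 26.1 and 25.2 CPM in SRSF7-OE, with no overlap and a direct difference of 0.28 (SE 0.0906, adjusted p = 0.0292). That call was lost in 5 of 13 alternatives: total counts alone (0.17, adjusted p = 0.142), the GC trend removed (0.15, adjusted p = 0.0526), and without SRSF3-OE replicate 2 (0.0724) or SRSF7-OE replicate 1 (0.0598) or 3 (0.0569). Its 1xCtrl libraries, at 29.7, 24.6 and 32.1 CPM, spanned both lines, and CLK4 was not called against the control in any line of this table. Without 1xCtrl replicate 2, the low one, CLK4 in SRSF7-OE had -0.27 (adjusted p = 0.0061).

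Over the 21 libraries, with each gene's log2 CPM centred on its mean within each table, Pearson's r between CLK1 and CLK4 was 0.916, the highest of all pairs among the 10 genes. It was 0.922 over the 9 libraries of the first table and 0.938 over the 12 of the second. It was 0.903 with the GC trend removed and 0.926 with the values centred within groups, 2 versions chosen after seeing the data. The libraries share the cell line and, within a table, the scaling, and CLK1 and CLK4 share a low GC content, so r is given as a description. SRPK1 and SRPK2 had r = 0.781, which was 0.238 with the GC trend removed.

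**Figure D3:**
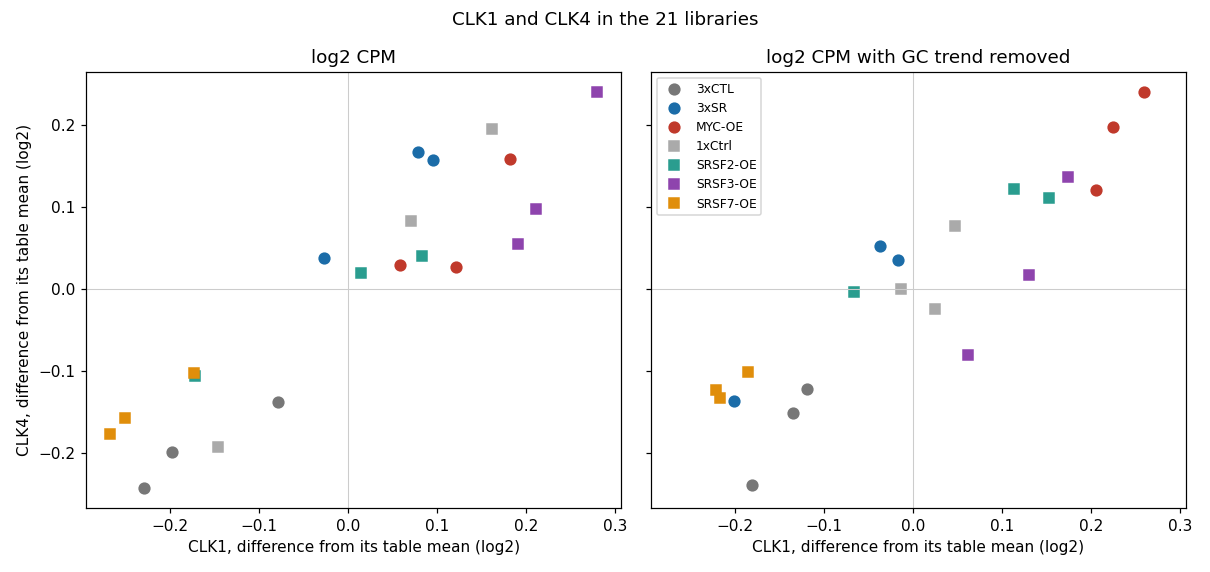
CLK4 against CLK1 in the 21 libraries, both as the log2 difference from the mean of their table, as measured in 1 panel and with the GC trend removed in the other, coloured by group. The points rise together in both panels (r = 0.916 and 0.903), with the SRSF7-OE libraries and 3xCTL replicates 1 and 3 at the low end of CLK1 in the first panel.

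Promoter windows are shown for CLK1, CLK2 and CLK4, which were higher in MYC-OE, and for DYRK1A, which was lower there, because the DNA motif that MYC and its partner MAX bind, the E-box CACGTG, can be read from the sequence. The windows are from RefSeq (GRCh38.p14) and run from 250 bases before to 50 after a gene start, 5′ to 3′ on the gene's strand, in lower case with the E-box in capitals. Of the 10 genes 8 had an entry, with 18 windows in all; PRPF4B and PPP1CA had none. CLK1 is chr2:200864609-200864908 (reverse strand), CLK2 is chr1:155273455-155273754 (reverse strand), CLK4 is chr5:178627001-178627300 (reverse strand) and the third window of DYRK1A is chr21:37366523-37366822 (forward strand).
CLK1: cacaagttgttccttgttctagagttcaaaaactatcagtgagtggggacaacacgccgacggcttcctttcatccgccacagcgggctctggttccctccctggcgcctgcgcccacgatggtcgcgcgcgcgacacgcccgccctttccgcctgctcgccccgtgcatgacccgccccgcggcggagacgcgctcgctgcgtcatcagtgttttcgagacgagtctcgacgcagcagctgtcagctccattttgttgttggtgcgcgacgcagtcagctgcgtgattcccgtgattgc
CLK2: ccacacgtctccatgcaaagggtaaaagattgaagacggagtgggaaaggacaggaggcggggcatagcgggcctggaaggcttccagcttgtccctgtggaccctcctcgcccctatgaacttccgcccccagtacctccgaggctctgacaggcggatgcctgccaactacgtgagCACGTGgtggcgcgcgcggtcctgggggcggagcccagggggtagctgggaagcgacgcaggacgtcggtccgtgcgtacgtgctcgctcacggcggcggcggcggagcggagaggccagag
CLK4: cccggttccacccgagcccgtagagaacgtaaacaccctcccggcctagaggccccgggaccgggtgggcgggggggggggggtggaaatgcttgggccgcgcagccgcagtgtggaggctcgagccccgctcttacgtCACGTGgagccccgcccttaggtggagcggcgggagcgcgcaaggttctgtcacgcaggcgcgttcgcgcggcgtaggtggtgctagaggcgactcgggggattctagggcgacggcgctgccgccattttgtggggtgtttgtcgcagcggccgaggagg
DYRK1A: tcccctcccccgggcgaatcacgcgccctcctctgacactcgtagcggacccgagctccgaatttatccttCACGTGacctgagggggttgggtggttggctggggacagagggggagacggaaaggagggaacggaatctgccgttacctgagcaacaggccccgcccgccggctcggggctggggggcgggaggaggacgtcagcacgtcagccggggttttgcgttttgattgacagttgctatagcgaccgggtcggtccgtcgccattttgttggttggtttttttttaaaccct
The E-box reads the same on both strands. It stood at -72 in CLK2, at -111 in CLK4 and at -179 in DYRK1A, counted from the start of that window's transcript, and in neither window of CLK1. These 3 of 18 windows compare with 7.26% of the 35116 windows searched. Of the windows of DYRK1A, only the one that holds the motif is shown. The windows of SRPK2, which was also lower in MYC-OE, held no E-box and are not shown. In the lines themselves CLK2 and CLK4 were higher in MYC-OE and so was CLK1, without the motif, while DYRK1A, with it, was lower. In 3xSR, where MYC was also higher, CLK4 (0.31) and CLK1 (0.22) were called higher, while CLK2 and DYRK1A were not called. With the GC trend removed neither CLK1 nor CLK4 was called in 3xSR, and CLK2 was (0.15). Whether the motif has a part in these changes was not tested. The ETS site CCGGAAG, on either strand, was in the second window of CLK3 and at 2 places in that of TNPO3, and in 10.3% of all windows. The NRF1 site (1.24% of all windows) and the CGCG element (0.424%), searched as 1 fixed word each, were in none of the 18. No binding was measured here.

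CLK2 moved in opposite directions in MYC-OE and SRSF3-OE. CLK2 (chromosome 1, 155262868 to 155278491, reverse strand), a nuclear kinase of SR proteins, was at 82.0, 83.0 and 85.2 CPM in 3xCTL and at 96.9, 100 and 104 CPM in MYC-OE. The MYC-OE libraries were all above the control, with a log2 fold change of 0.27 (SE 0.0614, adjusted p = 0.00489). In the second table CLK2 was at 102, 113 and 104 CPM in 1xCtrl and at 74.5, 88.8 and 79.9 CPM in SRSF3-OE. The SRSF3-OE libraries were all below the control, with a log2 fold change of -0.39 (SE 0.0721, adjusted p = 0.00118). CLK2 was also lower in SRSF3-OE than in SRSF2-OE, which was at 100, 112 and 112 CPM, with a difference of 0.41 (SRSF2-OE minus SRSF3-OE, SE 0.0721, adjusted p = 0.00106), held in all 13 alternatives. SRSF7-OE lay between, at 97.0, 93.2 and 95.9 CPM, above SRSF3-OE by a difference of -0.23 (SRSF3-OE minus SRSF7-OE, adjusted p = 0.0221) and below the control without a call (-0.16, adjusted p = 0.159). The former call was lost without SRSF3-OE replicate 1 (adjusted p = 0.0892) or 3 (0.0616) and without SRSF7-OE replicate 1 (0.0665) or 3 (0.0535), and the change against the control was called with the GC trend removed (-0.15, adjusted p = 0.0489). The opposite changes in MYC-OE and SRSF3-OE come from separate tables with separate controls, and the difference between them was not tested. In 3xSR, with 81.6, 95.5 and 93.1 CPM, CLK2 overlapped with the control and was not called (0.11, adjusted p = 0.203). It was called with the GC trend removed (0.15, adjusted p = 0.0328) and without 3xSR replicate 1 (0.18, adjusted p = 0.0352).

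CLK3, the remaining nuclear CLK kinase, was lower in 3xSR and in SRSF3-OE. CLK3 (chromosome 15, 74598500 to 74645414, forward strand) was at 50.6, 46.2 and 52.1 CPM in 3xCTL and at 34.7, 39.2 and 35.4 CPM in 3xSR. The groups did not overlap, and the log2 fold change of -0.45 (SE 0.0622, adjusted p = 0.000226) was the largest change of any of the 10 genes against a control. It ran from -0.51 to -0.41 over the 13 alternatives and was called in each. MYC-OE was at 51.9, 52.8 and 53.6 CPM, so that MYC-OE exceeded 3xSR by 0.53 (SE 0.0622, adjusted p = 6.67e-05), also called in every alternative. In the second table CLK3 was at 39.0, 49.4 and 36.7 CPM in 1xCtrl and at 31.8, 33.3 and 33.9 CPM in SRSF3-OE. SRSF3-OE was below all controls, with a log2 fold change of -0.34 (SE 0.0907, adjusted p = 0.0133), although the control libraries were spread. The call was lost in a fit of the 2 groups alone (adjusted p = 0.083) and without SRSF3-OE replicate 1 (0.074) or 2 (0.054). Without 1xCtrl replicate 2, the high one, the change was -0.21 (adjusted p = 0.0127). SRSF2-OE (43.5, 42.8 and 42.6 CPM) and SRSF7-OE (44.7, 41.4 and 44.2 CPM) were close to each other and above SRSF3-OE in every library. Against the control they were not called (0.04 and 0.06), but without 1xCtrl replicate 2 they were 0.18 (adjusted p = 0.0317) and 0.21 (adjusted p = 0.0136). The difference between SRSF3-OE and SRSF7-OE was -0.39 (SE 0.0906, adjusted p = 0.00411) and was held in all 13 alternatives. That of SRSF2-OE minus SRSF3-OE was 0.38 (SE 0.0907, adjusted p = 0.00744). It kept its call in 7 of 13 alternatives, with adjusted p up to 0.0811. Exons of CLK3 overlap with exons of EDC3 and of 2 other genes on the opposite strand, over 701, 479 and 180 bases, as do exons of SRPK1, SRPK2, DYRK1A and PPP1CA over 98 to 360 bases a neighbour, and the strand setting of the counting is not given in the sources used here. Exons of CLK4 overlap with RN7SKP70 on the same strand, over 161 bases.

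PRPF4B was lower in 3 of the 5 lines, and no other of the 10 genes was called lower in more than 2. PRPF4B (chromosome 6, 4021267 to 4064983, forward strand), a nuclear kinase that phosphorylates splicing factors of the tri-snRNP, was at 296, 335 and 293 CPM in 3xCTL and at 247, 250 and 245 CPM in MYC-OE. The MYC-OE libraries were all below the control, with a log2 fold change of -0.32 (SE 0.0551, adjusted p = 0.00081). In 3xSR it was at 324, 329 and 324 CPM and was not called (0.08, adjusted p = 0.308), except without 3xCTL replicate 2 (0.15, adjusted p = 0.0106). MYC-OE was below 3xSR by a difference of -0.40 (SE 0.0551, adjusted p = 0.000218), held in all 13 alternatives. With the GC trend removed that difference was smaller, at -0.17, and still called. PRPF4B was at 396, 336 and 406 CPM in 1xCtrl, at 305, 325 and 324 CPM in SRSF2-OE and at 298, 315 and 291 CPM in SRSF7-OE. Both lines lay below all control libraries, with log2 fold changes of -0.26 in SRSF2-OE (SE 0.0709, adjusted p = 0.0191) and -0.33 in SRSF7-OE (SE 0.0709, adjusted p = 0.00686). SRSF3-OE, at 386, 406 and 386 CPM, overlapped with the control (0.05). It was higher than SRSF2-OE, with a difference of -0.30 (SRSF2-OE minus SRSF3-OE, adjusted p = 0.00645), and higher than SRSF7-OE by 0.38 (adjusted p = 0.001). PRPF4B has 37.5% GC, and with the GC trend removed its changes were -0.22 in MYC-OE (adjusted p = 0.00017), -0.16 in SRSF2-OE (0.011) and -0.29 in SRSF7-OE (0.00023), still called. The difference between SRSF2-OE and SRSF3-OE was then -0.11 (adjusted p = 0.076) and was no longer called.

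DYRK1A, a dual-specificity kinase with splicing factors among its substrates, was lower in MYC-OE. DYRK1A (chromosome 21, 37365573 to 37526358, forward strand) was at 31.8, 34.2 and 31.3 CPM in 3xCTL, at 35.3, 31.8 and 31.0 CPM in 3xSR and at 29.4, 27.6 and 25.6 CPM in MYC-OE. The MYC-OE libraries were below those of both other groups, with a log2 fold change of -0.24 against 3xCTL (SE 0.0688, adjusted p = 0.0188) and a difference of -0.25 from 3xSR (SE 0.0688, adjusted p = 0.0156). The call against 3xCTL was lost without MYC-OE replicate 2 or 3, with adjusted p up to 0.0888, and that from 3xSR without 3xSR replicate 1 (adjusted p = 0.0734) or MYC-OE replicate 3 (0.0765). With the GC trend removed the difference from 3xSR was -0.15 (adjusted p = 0.0307). In the second table its log2 fold changes ran from -0.15 to 0.09 and were not called against the control, and SRSF3-OE (40.1, 35.3 and 35.5 CPM) exceeded SRSF7-OE (32.4, 32.9 and 28.3 CPM) by 0.24 (adjusted p = 0.0322). That call was lost with total counts alone (0.14, adjusted p = 0.158), with no filter (0.20, adjusted p = 0.0542), and without SRSF3-OE replicate 1 (0.16, adjusted p = 0.112) or SRSF7-OE replicate 3 (0.17, adjusted p = 0.133). Without 1xCtrl replicate 2 the change in SRSF7-OE, -0.15 with all libraries, was called (-0.21, adjusted p = 0.0374).

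TNPO3, the import receptor, was higher in SRSF3-OE. TNPO3 (chromosome 7, 128954180 to 129055173, reverse strand) was at 74.9, 70.1 and 78.5 CPM in 1xCtrl and at 90.4, 85.3 and 90.2 CPM in SRSF3-OE. No library overlapped, and the log2 fold change was 0.25 (SE 0.0624, adjusted p = 0.0084). Scaling by total counts alone, which moves the median of all genes in this comparison to -0.14, gave 0.14 (adjusted p = 0.07), and the other 12 alternatives kept the call. SRSF2-OE, at 84.9, 83.3 and 80.4 CPM, was also above every control library but was not called (0.15, adjusted p = 0.0962) unless the GC trend was removed (0.12, adjusted p = 0.0355), and SRSF7-OE, at 76.2, 80.2 and 71.0 CPM, overlapped with the control. Of the first 9 libraries, 3xCTL was at 78.7, 84.9 and 78.6 CPM, 3xSR at 89.9, 79.4 and 83.3 CPM and MYC-OE at 83.0, 80.1 and 78.5 CPM. These groups overlapped throughout, with log2 fold changes of 0.06 (SE 0.0576) in 3xSR and -0.0038 (SE 0.0576) in MYC-OE.

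PPP1CA was called lower in 3xSR, and the call did not remain with the GC trend removed. PPP1CA (chromosome 11, 67398183 to 67421183, reverse strand) has the highest GC content of the 10 transcripts, 61.4%. It was at 164, 143 and 161 CPM in 3xCTL, at 137, 135 and 135 CPM in 3xSR and at 167, 169 and 171 CPM in MYC-OE. The 3xSR libraries were below both other groups and the MYC-OE libraries above both. The change in MYC-OE against 3xCTL was not called (0.12, adjusted p = 0.123). In 3xSR the log2 fold change was -0.20 (SE 0.0548, adjusted p = 0.0154), and MYC-OE exceeded 3xSR by 0.32 (SE 0.0549, adjusted p = 0.00088). With the GC trend removed the change in 3xSR was 0.02 (adjusted p = 0.8) and the difference of MYC-OE from 3xSR was -0.005 (adjusted p = 0.96), so both changed sign. The call in 3xSR was also lost without 3xCTL replicate 1 or 3 and without 3xSR replicate 3. In the second table replicate 2 of 1xCtrl stood apart, with 101, 132 and 101 CPM in the 3 control libraries. SRSF7-OE was at 131, 137 and 142 CPM and was not called (0.30, SE 0.0989, adjusted p = 0.053), whereas without that control library the log2 fold change was 0.46 (adjusted p = 0.00053). Without it PPP1CA was also called in SRSF2-OE (0.32, adjusted p = 0.00406) and SRSF3-OE (0.21, adjusted p = 0.0409), where it was not called with all libraries (0.19 and 0.08).

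The direct comparisons called 19 of 40 differences of these genes, 7 of which held in all 13 alternatives. MYC-OE and 3xSR differed in 6 of the 10, beside 34.9% of all genes and 5734 of the 11459 at 5 CPM or more. SRSF2-OE and SRSF3-OE differed in 5, beside 26.8% and 36.8%, and SRSF3-OE and SRSF7-OE in 8, beside 35.2% and 48.0%. SRSF2-OE and SRSF7-OE differed in 0 of the 10 by edgeR and by DESeq2, beside 24.2% of all genes and 34.5% of those at 5 CPM or more by edgeR, with 2 (CLK1 and CLK2) at an unadjusted p under 0.05. Their largest difference was 0.21 for CLK1 (SE 0.0823, adjusted p = 0.0848). With the GC trend removed 5 of the 10 genes were called, beside 34.3% of all genes. The groups did not overlap for 7 genes between MYC-OE and 3xSR (53.2% of all genes), 7 between SRSF2-OE and SRSF3-OE (47.7%), 4 between SRSF2-OE and SRSF7-OE (46.0%) and 10 between SRSF3-OE and SRSF7-OE (52.6%). Leaving out 1xCtrl replicate 2 raised the count of called genes against that control to 3 in SRSF2-OE and to 6 in SRSF7-OE. The share of all genes called rose too, from 23.5% to 30% in SRSF2-OE and from 17.3% to 29.2% in SRSF7-OE.

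Other genes of the same machinery were read from 5 lists, chosen with earlier results of these data known. Their counts stand beside the shares of all genes called in either direction, which were 29.0% in 3xSR, 35.3% in MYC-OE, 29.2% in SRSF3-OE, 23.5% in SRSF2-OE and 17.3% in SRSF7-OE, and beside the higher shares at 5 CPM or more given above. Of 6 chaperones and co-chaperones of the kinases, all 6 were higher in SRSF3-OE, 5 in both 3xSR and SRSF2-OE, and 4 in both MYC-OE and SRSF7-OE. HSP90AA1, an HSP90 isoform, was at 2339 ± 223 CPM in 1xCtrl and 3266 ± 227 CPM in SRSF3-OE (SD, n = 3), a log2 fold change of 0.48 (adjusted p = 0.00082). DNAJC8, a J-domain protein found with the spliceosome, was higher in SRSF2-OE by 0.46 (adjusted p = 0.00036). The list's median log2 fold change was 0.23 to 0.36 over the 5 lines, beside -0.03 to -0.0038 over all genes. With total counts alone 3 of the 6 were called in SRSF3-OE. In SRSF7-OE the count was 1 in a fit of the 2 groups alone, and 2 without 1xCtrl replicate 1 or without any 1 of the SRSF7-OE replicates, and in SRSF2-OE it was 3 without SRSF2-OE replicate 1.

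Of 19 import receptors and Ran cycle genes, 10 were higher in SRSF3-OE, the line in which TNPO3 was higher, beside 29.2% of all genes called, or 41.7% among those at 5 CPM or more. The list's median was 0.26, beside -0.03 over all genes and 0.07 over those at 5 CPM or more. The 10 included TNPO1, TNPO2, KPNB1, KPNA2, IPO5, IPO7, IPO8 and IPO11. That count was 5 with total counts alone and 5 in a fit of the 2 groups alone. In MYC-OE 4 were higher and 4 lower. TNPO2, a relative of the import receptor transportin-1, was at 243 ± 18.3 CPM in 3xCTL and 150 ± 0.442 CPM in MYC-OE, with a log2 fold change of -0.70 (SE 0.0590, adjusted p = 2.71e-06). IPO13, an importin that also carries cargo out of the nucleus, had -0.65 there (SE 0.0624, adjusted p = 8.46e-06). TNPO3 itself overlapped with the control in that line.

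Of 16 other kinases of SR proteins or of the same kinase group, 1 was higher and 9 were lower in MYC-OE, where 35.3% of all genes and 45.8% of those at 5 CPM or more were called. The list's median was -0.17, beside -0.0046 over all genes. AKT2, a kinase of the insulin and growth factor pathway, had a log2 fold change of -0.72 (adjusted p = 0.00023) and DYRK4, a relative of DYRK1A, had -0.67 (adjusted p = 0.00014). The gene that was higher was TOP1, which encodes a topoisomerase with kinase activity toward SR proteins and was higher in all 5 lines, by 0.27 to 0.58. Without MYC-OE replicate 2 the count of kinases called lower was 5. In 3xSR 5 of the 16 were higher and 3 lower, beside 29.0% of all genes called, and in SRSF3-OE 5 were higher and 1 lower, beside 29.2%.

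Of 12 other phosphatase subunits and PP1 partners, 8 were higher in SRSF3-OE, beside 29.2% of all genes called, or 41.7% among those at 5 CPM or more. The list's median was 0.30, beside -0.03 over all genes and 0.07 over those at 5 CPM or more. PPP1R2, an inhibitor of PP1, had 0.51 (adjusted p = 0.0007) and PPP2CA, a catalytic subunit of PP2A, had 0.48 (adjusted p = 0.0003). In SRSF2-OE 6 were higher (beside 34.9% called at 5 CPM or more), which was 3 in a fit of the 2 groups alone and 3 without 1xCtrl replicate 1. In SRSF7-OE 3 were higher, close to the 26.1% of genes called at 5 CPM or more, a count that ran from 0 without 1xCtrl replicate 1, SRSF7-OE replicate 2 or SRSF7-OE replicate 3 to 9 with the GC trend removed. Of the 11 SR and TRA2 genes that are not the targets of these lines, 3 were higher and 5 lower in MYC-OE, beside 45.8% called at 5 CPM or more. SRSF6 had 0.61 in SRSF2-OE (adjusted p = 9.2e-05) and SRSF10, whose dephosphorylated form represses splicing, had -0.54 in MYC-OE (adjusted p = 3.3e-05).

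Among 11110 genes with at least 5 CPM in both tables, the gene most like each of the 10 over the 21 libraries was taken by Pearson's r of the centred log2 CPM. PRKAB2 was the nearest to both CLK1 (r = 0.919) and CLK4 (r = 0.923). The others were USO1 for SRPK1 (0.962), ZZZ3 for SRPK2 (0.952), RFX2 for CLK2 (0.895), NRM for CLK3 (0.973), PYROXD1 for DYRK1A (0.924), DUXAP9 for PRPF4B (0.973), PLRG1 for TNPO3 (0.953) and KRT7 for PPP1CA (0.946). These are the highest of many correlations over libraries that share depth and GC trends, and are given without a test.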

How the data were processed

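The deposited values are whole-number counts per gene, which the authors did not scale to a common total; Trimmomatic 0.39, STAR, StringTie 2.1.3b and GRCh38.p13 are named in the submitters' processing notes, and the annotation, the strand setting and whether a read pair counts once are not given in the sources used here. Libraries were grouped by their titles. Symbols matched 42044 of 60668 rows. The tests used edgeR 4.0.16 in R 4.3.3 (filterByExpr with a minimum count of 10, TMM, robust glmQLFit), 1 fit per table, over 23160 and 24362 genes. A standard error is the absolute log2 fold change divided by the square root of F. Positions, lengths and GC content are from GENCODE release 29, matched by identifier. Named processed pseudogenes of these genes had at most 23 counts in any library.

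The genes and lists were chosen with earlier results of these data known. The text names the 10 genes, the targeted genes, the 2 genes of each list with the largest change among called genes at 5 CPM or more, and the gene most like each of the 10. TOP1 and the import genes that were called in SRSF3-OE were named after their values were seen. Alternatives were RLE factors, total counts alone, no filter, DESeq2 1.42.0, only the 2 groups compared, the replicate number as a block, each library's GC trend removed (50 bins) and leaving out each library. Tested on simulated data (3xSR against 3xCTL, 23160 genes), the fit called 58.5% of 2-fold changes. Among genes at 5 CPM or more it called 96.8% of them, and 4.88% of all calls were false. The simulated counts had only 2-fold changes, in few genes, and no GC trend. These rates therefore need not hold for the smaller changes and the libraries described here.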

Additional observations from a re-analysis of the deposited data

How the results depend on the processing

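Of the 36 calls of the 10 genes in 9 comparisons, 15 held in all 13 alternatives of their comparison. The count of called genes against 1xCtrl was 2 in SRSF2-OE with the GC trend removed, 2 in SRSF3-OE with total counts alone and in a fit of the 2 groups alone, and 1 in SRSF7-OE with the replicate number as a block and in a fit of the 2 groups alone. In the direct comparisons it was 2 for SRSF2-OE and SRSF3-OE with the GC trend removed (34.6% of all genes). For SRSF2-OE and SRSF7-OE it was 5 with the GC trend removed (34.3%) and 2 in a fit of those groups alone (34.3%). For SRSF3-OE and SRSF7-OE it was 5 with total counts alone (35.7%). Why these counts moved was not tested.

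Leaving out 1 library at a time, the count ran from 2 to 6 in 3xSR, 4 to 6 in MYC-OE, 1 to 3 in SRSF2-OE, 2 to 5 in SRSF3-OE and 1 to 6 in SRSF7-OE against their controls. The share of all genes called moved in the same fits. It ran from 20.5% to 38.5% in 3xSR, 27.6% to 37.7% in MYC-OE and 18.9% to 30% in SRSF2-OE. In SRSF3-OE the share ran from 22% to 32.1%, and in SRSF7-OE from 10.7% to 29.2%. In the direct comparisons the count ran from 3 to 5 for MYC-OE and 3xSR (25.4% to 29% of all genes) and 3 to 5 for SRSF2-OE and SRSF3-OE (20.5% to 25.3%). For SRSF2-OE and SRSF7-OE it ran from 0 to 1 (17.5% to 21.3%), and for SRSF3-OE and SRSF7-OE from 3 to 9 (27.7% to 30.8%).

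Deviations of libraries with the same number were hardly correlated (r averaged -0.107 to 0.0118 over the 3 numbers), and in no comparison were all 6 libraries most like their own number, so the numbers were not taken as pairs. Under the replicate block the counts were 4, 6, 1, 4 and 1 in the 5 lines in the order above, and 5, 4, 0 and 7 in the direct comparisons. The shares of all genes called were 26.5%, 33.5%, 20.3%, 26% and 13.8% in the lines, and 32.6%, 23.4%, 20.8% and 32.1% in the direct comparisons.

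Called values that changed sign did so with the GC trend removed: PPP1CA in 3xSR (0.025) and in MYC-OE against 3xSR (-0.0050). The following values were not called with the fit used in the report and changed sign. With the GC trend removed, DYRK1A was -0.073 and PRPF4B -0.050 in 3xSR, TNPO3 was 0.018 in MYC-OE, and CLK1 was 0.050, CLK3 -0.011 and CLK4 0.059 in SRSF2-OE. PRPF4B was -0.053 in SRSF3-OE, SRPK2 was 0.025 in SRSF7-OE and CLK4 was 0.20 in MYC-OE against 3xSR. CLK4 was 0.050 and PPP1CA -0.015 in SRSF2-OE against SRSF3-OE, and PPP1CA was 0.023 in SRSF2-OE and 0.038 in SRSF3-OE, each against SRSF7-OE. With total counts alone, DYRK1A was -0.0083 in 3xSR, and SRPK2 was -0.025, CLK2 -0.041, CLK3 -0.017 and DYRK1A -0.041 in SRSF2-OE. CLK4 was -0.013, DYRK1A -0.018, PRPF4B -0.060 and PPP1CA -0.034 in SRSF3-OE, and SRPK2 was -0.014 in SRSF2-OE against SRSF7-OE. TNPO3 in MYC-OE was 0.0036 with RLE factors and with DESeq2 and 0.00064 with no filter. In SRSF2-OE, SRPK2 was -0.0012, CLK2 -0.020 and DYRK1A -0.017 with no filter, and SRPK2 was -0.0053, CLK2 -0.025, CLK3 -0.0035 and DYRK1A -0.021 in a fit of the 2 groups alone.

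Leaving out 1 library turned 16 values, none of them called with all libraries. In SRSF2-OE, SRPK2 ran from -0.041 to 0.028, CLK2 from -0.070 to 0.056, CLK3 from -0.088 to 0.18 and DYRK1A from -0.058 to 0.023. In SRSF3-OE, CLK4 ran from -0.020 to 0.14, DYRK1A from -0.018 to 0.094, PRPF4B from -0.043 to 0.055 and PPP1CA from -0.060 to 0.21. In SRSF7-OE, SRPK1 ran from -0.029 to 0.057, CLK3 from -0.060 to 0.21 and TNPO3 from -0.028 to 0.048. SRPK1 ran from -0.057 to 0.055 and TNPO3 from -0.026 to 0.035 in MYC-OE, SRPK2 from -0.069 to 0.019 and DYRK1A from -0.047 to 0.050 in 3xSR, and SRPK2 from -0.011 to 0.057 in SRSF2-OE against SRSF7-OE.

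With 3 libraries a group and at least 143269192 counts in each, the smallest called difference of these genes was -0.16 on the log2 scale (SRPK2, MYC-OE against 3xSR), a call that held in 4 of 13 alternatives and was lost in each fit without 1 library (adjusted p up to 0.124). Libraries of a group differed by more than counting error (chi-square over genes at least 12.7 for each degree of freedom). Gene counts do not separate transcripts that keep introns or code for other isoforms, nor do they measure protein or phosphorylation.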
